A study of Mus musculus with 12 samples.

Results

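The AP-1 factor genes were examined for binding sites of TET2, which converts methylated cytosine in DNA to oxidized forms, in 2 kinds of cultured mouse blood cells. The 10 members were Fos, Fosb, Fosl1, Fosl2, Jun, Junb, Jund, Batf, Batf3 and Atf3, out of 21883 protein-coding genes of the mouse RefSeq table on chromosomes 1 to 19, X and Y. They were chosen by name, with earlier results of these data known, so the shares of members with a site are descriptions. A site was given to a gene when its midpoint lay inside the gene, or within 100 kb of the gene with that gene's start or end the nearest of all protein-coding genes. By this rule the members held 13 of the 6895 sites in the AML list and 26 of the 18822 sites in the myeloid list, both counted after overlapping sites of a list were merged.

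Chromatin immunoprecipitation with sequencing had been done on 12 libraries. In AML cells, an acute myeloid leukemia culture without a transgene, the TET2 libraries came from 2 Npm1+/cA; Fl3+/ITD; Tet2-/- samples and 2 Npm1+/cA; Fl3+/ITD samples (spelled as in the labels). In myeloid cells, hematopoietic cells immortalized with the retroviral transgene MigR1-AML1-ETO, they came from 2 Tet2-/-; AML1-ETO samples and 2 Tet2fl/fl; AML1-ETO samples. Each cell type also had 1 IgG and 1 input library. The 2 cultures differ in their driver lesions as well as in kind, so cell type and lesion cannot be told apart, and how many clones or animals stand behind each culture is not stated. All cultures were kept in stem cell factor, interleukin 3 and interleukin 6. The deposited files hold 1 list of site positions per cell type, with no height, score or value per library. The depth behind a site is therefore unknown, no value below has a replicate error, and every interval covers counting error over sites alone.

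AP-1 is a dimer of basic leucine zipper (bZIP) proteins. JUN proteins pair with each other or with FOS proteins, and the dimers bind a short palindromic motif in enhancers and promoters. BATF and ATF proteins pair with JUN proteins as well. Many of these genes are immediate early genes, switched on within minutes by growth factors, cytokines or stress through MAP kinases, and in myeloid cells AP-1 takes part in proliferation, in monocyte and macrophage differentiation and in inflammatory gene expression.

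By the rule above, nearly all of these genes were given a TET2 site in both lists. Such a site can lie far from its gene, as did the only myeloid site of Jun, 96.7 kb upstream. Of the 10 members, 9 had at least 1 AML site, where 19.7% of all protein-coding genes had one, and 9 had at least 1 myeloid site, where 41.9% did. Batf, whose protein partners JUN and cooperates with IRF factors in lymphocytes, had 0 sites in both lists. The median was 1 AML site and 2.5 myeloid sites per member, against a median of 0 in both lists over all genes. In 6 members (Fos, Fosb, Fosl1, Fosl2, Jund and Batf3) an AML site overlapped a myeloid site, and 15.5% of all genes had such a shared site. The 13 AML sites had an exact Poisson 95% interval of 6.92 to 22.2 and the 26 myeloid sites one of 17.0 to 38.1. The members had 2.0 times as many myeloid as AML sites, and all assigned sites gave a ratio of 2.79. The plot of site counts by gene gives each member's shared and unshared sites.

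**Figure D1:**
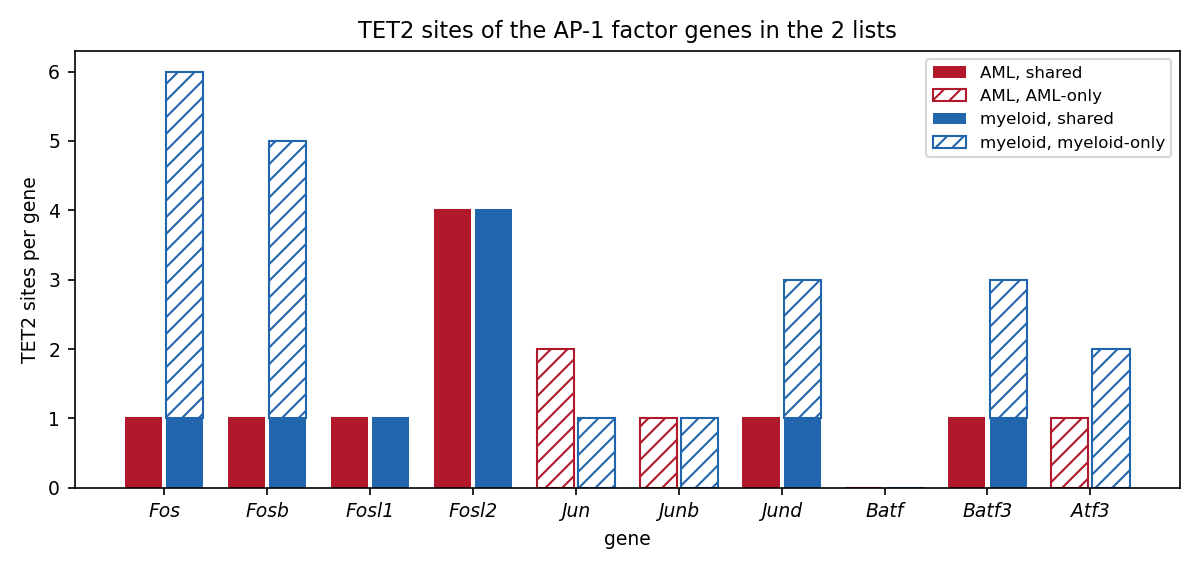
Number of TET2 sites of each AP-1 factor gene (y axis, sites per gene) in the AML list (red) and the myeloid list (blue); filled bars are sites shared by the lists and hatched bars are sites of 1 list. Fosl2 had 4 shared sites in each list, Fos had 1 AML site and 6 myeloid sites, and Batf had none.

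How many sites a gene can hold by this rule depends on the space around it. The territory of a gene was taken as the stretch in which a site would be given to it, and the number of sites expected there was its share of all territory times the number of assigned sites. Territories ran from 7.9 kb at Junb, which is hemmed in by Prdx2 and Hook2, to 138 kb at Jun, whose next gene on 1 side, Fggy, starts 505 kb away. Together the members' territories gave 1.96 AML sites and 5.48 myeloid sites expected, against the 13 and 26 found. The expected number lay under the 95% interval of the count in 1 member of the AML list (Fosl2) and in 3.23% of all genes. In the myeloid list the same held for 5 members (Fos, Fosb, Fosl2, Jund and Batf3) and for 6.86% of all genes. The expected number takes sites as spread evenly over all territory, and they were not. Within 1 kb of a gene end lay 9.57% of all assigned AML sites and 24.0% of all assigned myeloid sites. A small territory lies largely near gene ends, so its expected number may be too low. Whether the members held more sites than other genes with like territories was not tested. Sites also lie in clusters, so these shares are given as descriptions.

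**Figure D2:**
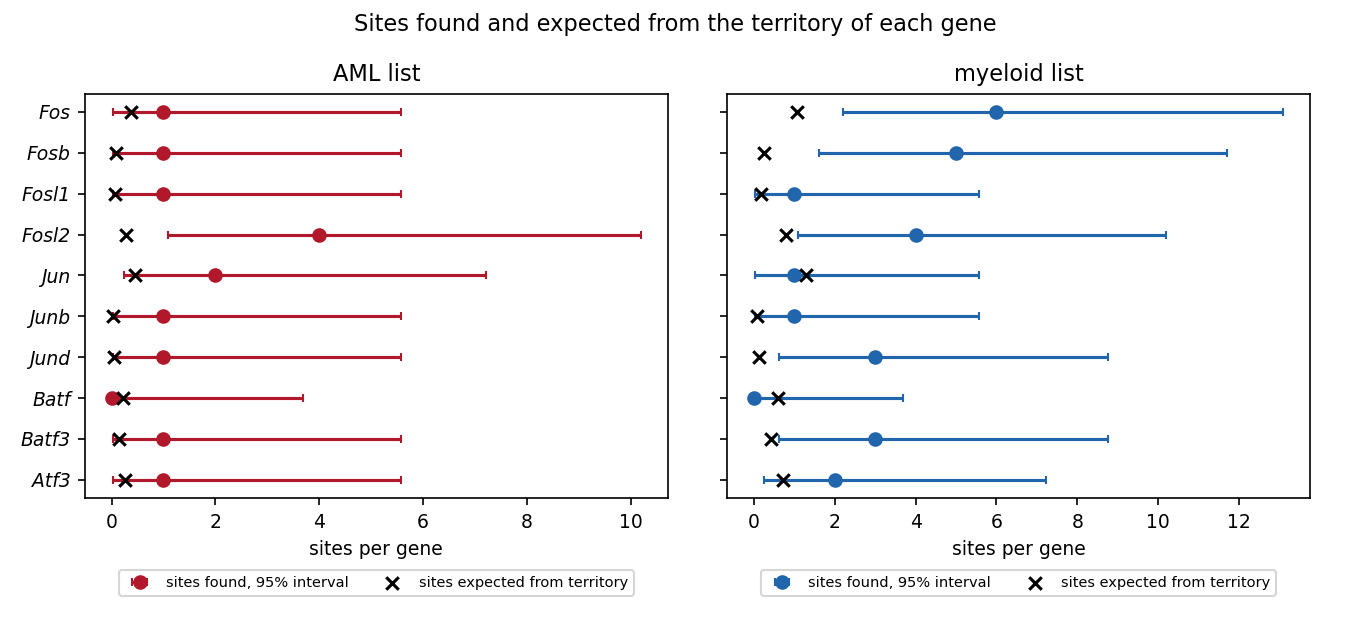
Sites found per gene (points, x axis, with exact Poisson 95% intervals) and sites expected from the gene's territory (crosses), in the AML list (left) and the myeloid list (right). The expected number lies outside the interval at Fosl2 in the AML list, and at Fos, Fosb, Fosl2, Jund and Batf3 in the myeloid list.

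The FOS family, the partners that cannot pair among themselves and need a JUN protein, held most of the sites. These 4 genes had 7 AML sites, all of them shared, and 16 myeloid sites, of which 9 were myeloid-only. All 7 shared is 100% with an exact Clopper-Pearson 95% interval of 59.0 to 100, against 72.3% (71.2 to 73.4) of all assigned AML sites, so the share was within its counting error of the whole list.

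Fosl2 encodes FRA-2, a FOS protein without the C-terminal transactivation domain of FOS. It lies on chromosome 5 from 32136472 to 32157840 on the plus strand and had 4 AML sites (interval 1.09 to 10.2, 0.281 expected) and 4 myeloid sites (1.09 to 10.2, 0.785 expected). At least 4 AML sites were found at 1.01% of all genes, and at least 4 myeloid sites at 5.65%. All 4 were pairs of shared sites, and none was left over in either list. The AML sites were chr5:32112346-32113043 and chr5:32122236-32122895, 23.8 and 13.9 kb upstream of the start, chr5:32138305-32138977 inside the gene at 2.17 kb from the start, and chr5:32194137-32194788, 36.6 kb past the end. Their midpoints were 3, 17, 18 and 3 bp from those of the myeloid sites. Each AML site was narrower than its myeloid partner, with widths of 697, 659, 672 and 651 bp in the AML list against 781, 753, 756 and 718 bp in the myeloid list. A width of 651 bp is the smallest in the AML list, whose median is 721 bp. When non-coding genes and pseudogenes could also take sites, Fosl2 kept 1 site in each list, since 2 of each list went to the long non-coding RNA gene Gm36665 and 1 to the pseudogene Gm9555.

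Fos, the best known immediate early gene, lies on chromosome 12 from 85473890 to 85477274 on the plus strand. It had 1 AML site (interval 0.0253 to 5.57, 0.378 expected) and 6 myeloid sites (2.2 to 13.1, 1.06 expected), and at least 6 myeloid sites were found at 2.01% of all genes. The AML site, chr12:85468424-85469225, lay 5.07 kb upstream of the start and its midpoint was 19 bp from that of a myeloid site. The other 5 myeloid sites were myeloid-only. They lay 18.5 and 1.54 kb upstream of the start, and 8.77, 12.1 and 55.5 kb past the end of the gene. None was inside the gene or within 1 kb of its ends. Fos kept 4 myeloid sites when non-coding genes could also take sites. The site at 18.5 kb upstream then went to the long non-coding RNA gene Gm38543, and that at 55.5 kb past the end to another, Gm32296.

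Fosb, an immediate early gene that also gives a truncated, long-lived protein by splicing, lies on chromosome 7 from 19302696 to 19310118 on the minus strand. It had 1 AML site (0.092 expected) and 5 myeloid sites (interval 1.62 to 11.7, 0.257 expected) in a territory of 27.7 kb. At least 5 myeloid sites were found at 3.39% of all genes. The AML site, chr7:19316335-19317110, lay 6.6 kb upstream. It overlapped the widest myeloid site of all members, chr7:19316109-19317049 with 940 bp, by 714 bp. The 4 myeloid-only sites lay inside the gene at 1.39 kb from the start, at 0.259 kb upstream (chr7:19310048-19310706), and at 10.0 and 11.5 kb upstream. The myeloid sites thus spanned the first part of the gene and the sequence before it, with the AML site among them.

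Fosl1 encodes FRA-1, the other FOS protein without that transactivation domain, and lies on chromosome 19 from 5447698 to 5455938. It had 1 site in each list (0.064 AML sites and 0.179 myeloid sites expected). The AML site, chr19:5444290-5445004, and the myeloid site had midpoints 8 bp apart, 3.05 and 3.04 kb before the lower coordinate of the gene. The promoter table used here has no entry for Fosl1, so its strand is not given.

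The JUN family, which supplies the partner that FOS proteins need, had fewer sites and fewer of them in common. Its territory was also smaller, 159 kb against 245 kb for the FOS family. From these territories 0.528 AML and 1.47 myeloid sites were expected in the JUN family, against 0.815 and 2.28 in the FOS family. The 3 JUN genes had 4 AML sites and 5 myeloid sites, and 1 site of each list was shared. For the AML sites this is 25.0% with an exact interval of 0.631 to 80.6, which also holds the 72.3% of the whole list. In Jun and Junb, as in Atf3, no AML site was shared. Among the 4318 genes with an AML site, 21.4% had only unshared AML sites.

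Jun, whose protein is activated by the JNK kinases and which can pair with itself, lies on chromosome 4 from 95049036 to 95052222 on the minus strand. It had 2 AML sites (interval 0.242 to 7.22, 0.46 expected) and 1 myeloid site (0.0253 to 5.57, 1.28 expected), and it was the member with more AML than myeloid sites. The AML sites were chr4:95075291-95076175 at 23.5 kb upstream, which with 884 bp was the widest AML site of the members, and chr4:95094655-95095344 at 42.8 kb upstream. The myeloid site lay 96.7 kb upstream, 53.9 kb from the nearer AML site and just inside the limit of 100 kb. Just outside the limit, at 105, 109 and 126 kb upstream, lay 3 more myeloid-only sites whose nearest protein-coding gene was Jun. Further out, 3 sites at 157, 163 and 178 kb upstream were shared by both lists, and 1 myeloid-only site lay at 218 kb. With a limit of 250 kb, a setting chosen after the data were seen, Jun had 5 AML sites, 3 of them shared, and 8 myeloid sites. Within 100 kb all 3 sites went to Junos when non-coding genes could take sites. Junos is a long non-coding RNA gene that reaches from beside Jun past all 3 sites, so they lay inside it.

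Junb, which restrains the growth of myeloid cells in mice, lies on chromosome 8 from 84976909 to 84978748 on the minus strand. It had 1 AML site (0.0263 expected) and 1 myeloid site (0.0734 expected), side by side. The AML site, chr8:84979421-84980169, had its midpoint 1.05 kb upstream of the start. The myeloid site, chr8:84978384-84979167, had its midpoint 27 bp upstream. The sites did not overlap: 254 bp lay between them and their midpoints were 1.02 kb apart, so both count as unshared here.

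Jund, broadly expressed in most tissues, lies on the same chromosome from 70697739 to 70700616 on the plus strand. It had 1 AML site (0.0423 expected) and 3 myeloid sites (interval 0.619 to 8.77, 0.118 expected) in 12.7 kb of territory. The AML site, chr8:70695108-70695889, lay 2.24 kb upstream with its midpoint 15 bp from that of a myeloid site. The 2 myeloid-only sites lay inside the gene at 1.05 kb from the start and 80 bp past its end (chr8:70700344-70701048), close to Iqcn, which begins 0.705 kb after Jund.

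The BATF and ATF genes had 2 AML sites and 5 myeloid sites, with 1 shared pair among them. Batf3, needed in mice for the dendritic cells that present antigen to CD8 T cells, lies on chromosome 1 from 191098414 to 191108943 on the plus strand. It had 1 AML site (0.147 expected) and 3 myeloid sites (interval 0.619 to 8.77, 0.411 expected). All were downstream of the gene. The AML site, chr1:191132680-191133445, lay 24.1 kb past the end, and its midpoint was 1 bp from that of a myeloid site. The 2 myeloid-only sites lay 2.53 and 14.0 kb past the end. When non-coding genes could also take sites, Batf3 kept 0 AML sites and 1 myeloid site, since the shared pair went to the long non-coding RNA gene Gm31640 and 1 myeloid-only site to another, Gm46178. The AML site also lay outside a limit of 20 kb.

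Atf3, a stress-induced gene whose protein restrains Toll-like receptor responses in mouse macrophages, is Batf3's neighbour on chromosome 1, from 191170296 to 191183333 on the minus strand. It had 1 AML site (0.258 expected) and 2 myeloid sites (interval 0.242 to 7.22, 0.719 expected), none shared. The AML site, chr1:191197702-191198404, lay 14.7 kb upstream. The myeloid sites lay 0.194 kb (chr1:191183165-191183890) and 18.1 kb upstream, the second at 3.36 kb from the AML site by midpoint. Fam71a, the protein-coding gene between Batf3 and Atf3, had 0 sites in both lists.

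Batf lies on chromosome 12 from 85686720 to 85709087 on the plus strand, and its 0 sites stand beside 0.215 AML sites and 0.599 myeloid sites expected. A count of 0 has an exact Poisson upper limit of 3.69 sites, so at this number of sites a lower density at Batf was not detectable. Sites were found near it, but closer to other genes. Within 100 kb of Batf there were 5 AML sites, 3 given to Jdp2 and all shared, and 2 given to Flvcr2 and not shared. The 5 myeloid sites within 100 kb were all given to Jdp2, and 3 of them were shared. The nearest site lay 27.1 kb from Batf in both lists. Jdp2, which lies between Fos and Batf and encodes a repressor that pairs with JUN proteins, had 5 AML sites (0.417 expected) and 7 myeloid sites (1.16 expected).

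**Figure D3:**
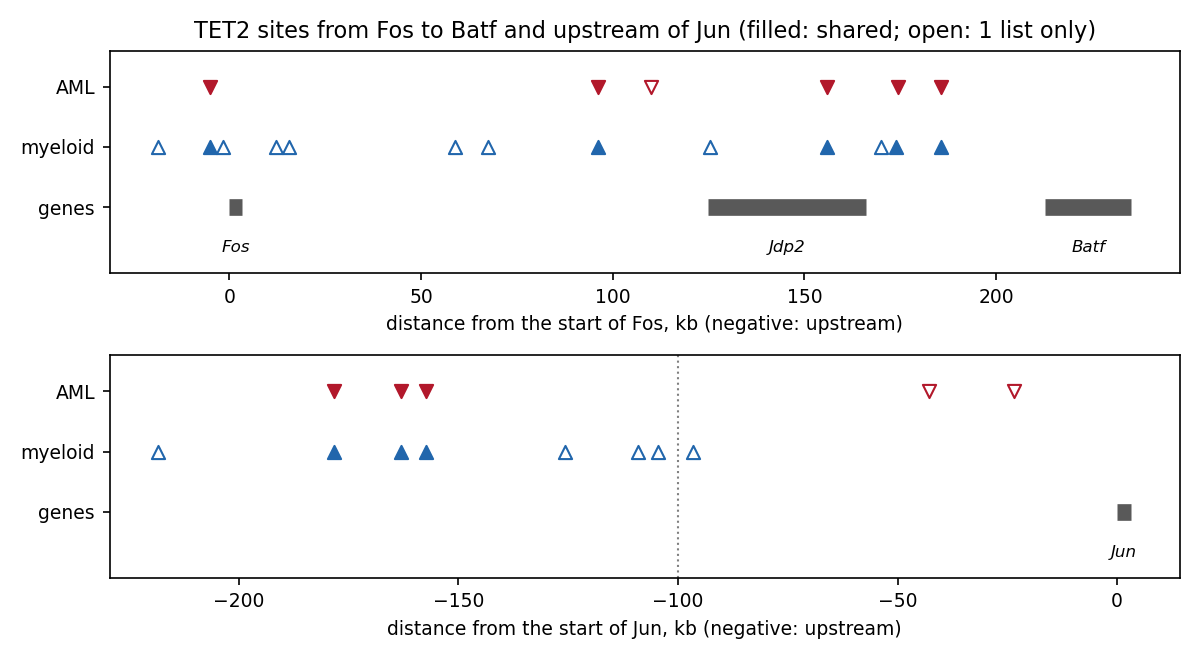
TET2 sites by distance in kb from the start of Fos (top, through Jdp2 to Batf) and from the start of Jun (bottom, upstream to the left); red triangles are AML sites, blue triangles myeloid sites, filled ones are shared, and the dotted line marks 100 kb. The Batf gene holds no site of either list, and upstream of Jun the 3 shared sites lie beyond the dotted line, at 157, 163 and 178 kb.

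Where the lists shared a site, they placed it at nearly the same position. The 9 shared pairs had a median midpoint distance of 15 bp (range 1 to 143 bp), and the myeloid site covered at least 92.1% of the AML site. Sharing was itself defined by overlap, which bounds these distances. They are not set beside those of all shared sites, so they are no trait of these genes. The myeloid site was the wider one in 8 of the 9 pairs, the exception being Fos, where the AML site spanned 801 bp and its myeloid partner 759 bp. Over all 4922 shared AML sites the myeloid partner was the wider one in 60.8%.

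Most sites of these genes lay away from the ends of the genes, as did most of all assigned sites. In the AML list 0 of the 13 sites lay within 1 kb of a start or end (exact upper limit 24.7%), against 9.57% of all assigned AML sites. Of the 26 myeloid sites 4 did (15.4%, exact interval 4.36 to 34.9), against 24.0% of all assigned myeloid sites. Both shares were within their counting error of the whole list. Counted by gene, 0 of the 10 members had an AML site at an end, where 2.84% of all genes did, and 4 had a myeloid site there (Fosb, Junb, Jund and Atf3), where 19.5% of all genes did. All 4 of these sites were myeloid-only. The AML sites lay 1.05 to 42.8 kb from the nearer end, with a median of 13.9 kb, against 13.0 kb for all assigned AML sites. The myeloid sites lay 0.027 to 96.7 kb away with a median of 7.62 kb, against 7.57 kb for all. More than 10 kb from an end were 7 of the 13 AML sites and 12 of the 26 myeloid sites, where 58.6% of all assigned AML sites and 46.3% of all assigned myeloid sites were. Of the AML sites, 9 lay upstream of the start, 1 inside a gene and 2 past the end. Of the myeloid sites, 14 lay upstream, 3 inside and 8 past the end. The Fosl1 site of each list has no side, for want of a strand.

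**Figure D4:**
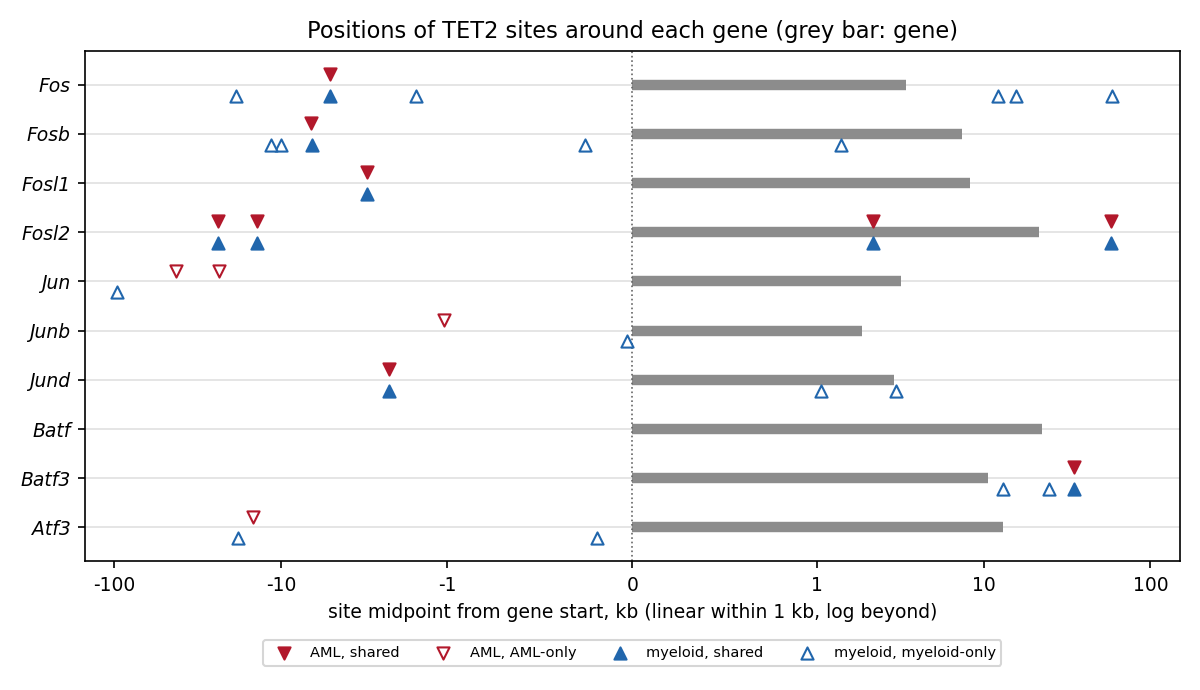
Position of each site's midpoint relative to the gene start (x axis, kb; linear within 1 kb and logarithmic beyond, negative upstream) for each gene; red triangles are AML sites, blue triangles myeloid sites, filled ones are shared and grey bars are the genes. For Fosl1 the lower coordinate stands for the start. The sites nearest to a start are the myeloid-only sites of Junb (27 bp), Atf3 (0.194 kb) and Fosb (0.259 kb), while the nearest AML site lies 1.05 kb from the start of Junb.

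At 3 members a site lay over the promoter itself, in the myeloid list in each case. The promoter table, from RefSeq (GRCm38.p6, the build whose coordinates mm10 uses), holds 9 of the 10 members and 17491 of the protein-coding genes, with a window from 250 bases before to 50 bases after the start. A myeloid site overlapped this window at Fosb, Junb and Atf3 and at 20.3% of all genes with a promoter entry. An AML site overlapped it at 0 of the 9 members and at 1.94% of all such genes. The 250 bases before the promoter table's start of these 3 genes are shown with the promoter of Batf, which had no site. At Fosb the 2 sources differ in the start. Its 250 bases begin at 19310046, while the gene reaches 19310118 on this minus strand, so they lie partly inside the gene. Distances of Fosb sites were measured from 19310118. Capitals mark the CpG dinucleotides, the main place of DNA methylation in mammals and so of the substrate of TET2.
Fosb, chr7:19310046-19310295, minus strand: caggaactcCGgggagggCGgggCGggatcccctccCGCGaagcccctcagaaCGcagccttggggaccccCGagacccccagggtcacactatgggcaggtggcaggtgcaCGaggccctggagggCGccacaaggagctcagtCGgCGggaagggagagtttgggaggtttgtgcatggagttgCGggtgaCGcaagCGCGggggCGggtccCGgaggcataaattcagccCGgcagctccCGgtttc
Junb, chr8:84978749-84978998, minus strand: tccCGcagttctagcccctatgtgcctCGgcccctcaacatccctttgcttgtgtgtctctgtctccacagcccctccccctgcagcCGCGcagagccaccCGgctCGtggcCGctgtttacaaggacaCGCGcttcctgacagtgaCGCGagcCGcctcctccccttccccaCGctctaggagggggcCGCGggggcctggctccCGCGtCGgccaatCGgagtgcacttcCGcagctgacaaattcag
Atf3, chr1:191183334-191183583, minus strand: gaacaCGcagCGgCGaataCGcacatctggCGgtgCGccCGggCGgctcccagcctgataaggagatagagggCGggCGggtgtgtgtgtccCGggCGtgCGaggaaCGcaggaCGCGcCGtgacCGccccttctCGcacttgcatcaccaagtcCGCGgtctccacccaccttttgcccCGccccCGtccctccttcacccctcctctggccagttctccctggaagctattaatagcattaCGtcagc
Batf, chr12:85686470-85686719, plus strand: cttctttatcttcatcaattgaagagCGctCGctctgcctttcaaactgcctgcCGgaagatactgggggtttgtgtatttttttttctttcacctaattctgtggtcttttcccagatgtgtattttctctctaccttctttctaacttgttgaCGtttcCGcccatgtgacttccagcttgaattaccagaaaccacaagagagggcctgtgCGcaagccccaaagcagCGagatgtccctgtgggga

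The overlapped promoters held more CpG than the median promoter. There were 19 CpG at Fosb, 20 at Junb and 24 at Atf3, where the 4050 overlapped windows of all genes had a median of 18 and all 21262 windows a median of 10. The Batf promoter held 7. CpG number alone did not separate the members, since the promoters of Batf3 with 27 and Fosl2 with 23 CpG were not overlapped. Jun and Fos had 15 each and Jund had 3, also without a site over the window. Letters of 6 motifs were searched on both strands of the 250 bases. The AP-1 motif TGANTCA was in 0 of the 9 members' promoters and in 6.13% of all, the cAMP response element TGACGTCA in 0 and in 1.92%, and the CArG box of serum response factor in 0 and in 1.39%. The variant TGACATCA was in the promoter of Jun alone, at bases -45 to -38 from the start, and in 2.86% of all promoters. The ETS core GGAAG was in 8 of the 9 and in 65.1% of all, and the RUNX core TGTGGT, at 2 places, was in the promoter of Batf and in 12.4% of all. These matches describe letters in a window and not bound sites. Elements beyond the 250 bases, or with other letters, were not searched. A count of 0 therefore does not mean that a gene lacks the element.

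The difference between the lists was tested gene by gene on unshared sites, with Fisher's exact test (two-sided) of the AML-only and myeloid-only sites of a gene against those of all other genes. The test takes sites as units, although they lie in clusters, so its p-values carry no variation between cultures. With at least 5 unshared sites required, 452 genes were tested and 3 passed after Benjamini-Hochberg adjustment (0.664%), each with more AML-only sites. No gene had more than 18 myeloid sites, and most unshared sites were myeloid-only. A lean to myeloid-only sites could therefore not have passed, so the direction of the 3 is not a result. Fos was the 1 member with enough sites. It had 0 AML-only and 5 myeloid-only sites, where 88.2% of all unshared sites were myeloid-only. It did not pass (Fisher's exact test, adjusted p = 1), as no gene with myeloid-only sites alone could. With at least 3 unshared sites, Jun, Fosb and Atf3 were also tested and did not pass. Jun had 2 AML-only sites and 1 myeloid-only site, an odds ratio of 14.9 (Fisher's exact test, unadjusted p = 0.0386, adjusted p = 0.831). So few sites per gene leave no member shown to differ between the cell types, and none shown to be alike.

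Genes that pair with AP-1, drive it or respond to it were counted in 4 further lists. The lists were drawn up with earlier results of the same data known, so their counts are descriptions beside the shares of 19.7% and 41.9% for all genes. Of 24 other bZIP genes, 10 carried AML sites (41.7%) and 20 carried myeloid sites (83.3%), with 27 and 73 sites found where 9.32 and 26.0 were expected from their territories. The CREB family gene Creb5 had 8 AML sites and 14 myeloid sites in a wide territory (1.9 and 5.3 expected). Bach2, a repressor in B and T cells, had 3 and 6 (1.51 and 4.22 expected). Atf6, a sensor of unfolded protein, had 2 and 6 (0.591 and 1.65 expected). Maf, a macrophage factor, had 0 AML sites and 3 myeloid sites, and Atf4, the factor of the amino acid response, had 0 and 2, both at an end of the gene.

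Of 21 genes of the MAP kinase pathway, which switches AP-1 genes on, 9 carried AML sites (42.9%) and 17 carried myeloid sites (81.0%), with 19 and 66 sites found where 7.82 and 21.8 were expected. The p38 kinase gene Mapk14 had 3 AML sites, of which 2 were shared, and 9 myeloid sites. Map3k8, the kinase TPL2 of Toll-like receptor signalling, had 3 and 8, the ERK-activated kinase gene Rps6ka1 had 3 and 11, and the stress kinase gene Map3k5 had 2 and 7. Map3k1 and Map2k6 had 0 AML sites and 4 and 3 myeloid sites. Expected there were 0.618 and 0.855 AML sites, and 1.72 and 2.39 myeloid sites.

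Of 18 genes known as AP-1 targets, 10 carried AML sites (55.6%) and 14 carried myeloid sites (77.8%), with 23 and 47 sites found where 3.91 and 10.9 were expected. Dusp1, a phosphatase that turns MAP kinases off, had 4 AML sites, all shared, and 8 myeloid sites. The chemokine gene Ccl2 had 4 AML sites and 4 myeloid sites, Il1b, the gene of interleukin 1 beta, had 3 and 3, and the adhesion receptor gene Cd44 had 2 and 7. Il6 and the protease gene Plau had 0 AML sites and 4 myeloid sites each. Of 11 genes of ligases and coregulators of AP-1 proteins, 3 carried AML sites (27.3%) and 9 carried myeloid sites (81.8%). Their 4 AML sites and 14 myeloid sites stand beside 5.2 and 14.5 expected from their territories. Cop1, a ligase that degrades JUN, had 2 AML sites and 4 myeloid sites (1.02 and 2.85 expected). Fbxw7, another such ligase, had 1 and 2 (1.06 and 2.97 expected), and the ligase gene Itch had 1 and 1 (0.425 and 1.19 expected). Det1, part of a ligase complex with COP1, had 0 and 2 (0.214 and 0.598 expected). The acetyltransferase genes Crebbp and Ep300 had 0 AML sites and 1 myeloid site each, where 1.58 and 1.18 myeloid sites were expected.

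**Figure D5:**
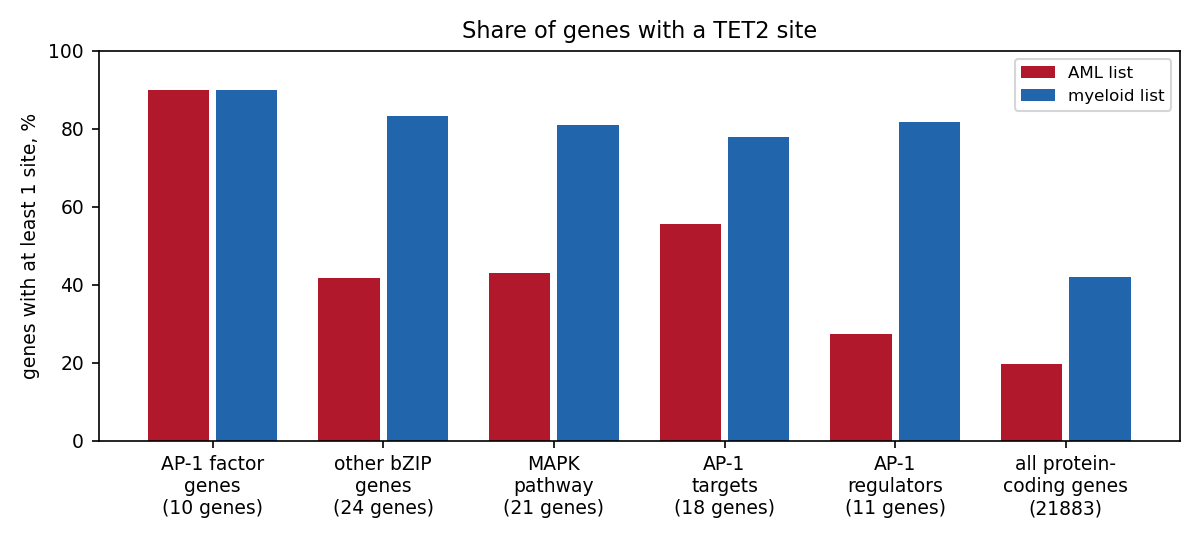
Share of genes with at least 1 TET2 site (y axis, percent) in the AML list (red) and the myeloid list (blue), for the AP-1 factor genes, 4 related gene lists and all protein-coding genes. The AP-1 factor genes stand at 90.0% in both lists, against 19.7% and 41.9% of all genes.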

How the data were processed

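TET2 ChIP-seq site lists were analysed for 2 cell types of cultured mouse cells. The tools Bowtie2, MACS2 and Trimmomatic and the build mm10 are named per the submitters' processing notes. Versions, thresholds, pooling of replicates and the use of knockout, IgG and input libraries: not given in the sources used here. Per the file headers, the authors deposited a chromosome, start and end per site (7002 AML sites, 19706 myeloid sites) and no other value. Whether starts count from 0 or 1 is not stated, so positions are uncertain by 1 bp. Depth is unknown, which limits the reading of absent sites.

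Sites off the placed chromosomes were dropped (1 AML site). Overlapping sites of a list were merged. Sites of the lists were called shared when they overlapped by at least 1 bp. Genes came from the RefSeq table of GRCm38.p6, strand and promoter bases from the RefSeq promoter table. Poisson and Clopper-Pearson 95% intervals and Fisher's exact tests (Benjamini-Hochberg over all genes tested, threshold 0.05) were computed with Python 3.11.15, scipy 1.17.1 and pandas 2.3.3. The code was tested on simulated data, in which the changed genes had more AML sites. The rule for named genes took all members, their bounding neighbours, per related list the 4 richest in sites and at most 2 occupied in a single cell type. Members and lists were chosen with earlier results of these data known.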

Additional observations from a re-analysis of the deposited data

How the results depend on the processing

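The number of members with a site ran from 7 to 10 for AML sites and from 8 to 10 for myeloid sites over the alternatives run. The members' AML sites numbered 8 with a limit of 20 kb, 7 (5 of them shared) when all annotated genes could take sites, and 26 when every site within 100 kb counted whatever gene was nearest, a setting chosen after the data were seen. The myeloid sites numbered 73 with every site within 100 kb, against 26 by the rule used. With a gene end taken as 5 kb, 4 AML sites and 11 myeloid sites of the members lay at an end, and the same counts at 0.5 kb were 0 and 4. Merging within 500 bp, no merging and stricter sharing left the members' counts within 1.5 times the reported ones, and 2 or 3 genes passed the test between the lists under the 10 alternatives for which it was rerun. Of the counts per single gene under the alternatives other than those chosen after the data were seen, 108 of 120 stayed within 1.5 times, and the other 12 were of Fosl2, Jun and Batf3, at limits of 50 or 20 kb or with all annotated genes. With the 2 settings chosen after that (a limit of 250 kb, and every site within 100 kb) included, 28 of 160 changed by more than 1.5 times: in addition, at 250 kb those of Jun, and with every site within 100 kb those of all members but Fosl2 and Jun in at least 1 list (Batf then had 5 sites in each list). No paired analysis was possible because the lists hold no value per library, and for the same reason no replicate could be left out. Depth per site is unknown, so absence from a list is not evidence of no binding.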
